A study of Mus musculus with 2 samples.

Results

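Genes of glycolysis, the pentose phosphate pathway and the citrate cycle, with the transporters of glucose and lactate, were examined in mouse KLS cells, a bone marrow stem and progenitor fraction sorted as negative for lineage markers and positive for c-kit and Sca. The members were the 42 listed genes, found through the platform annotation of the probe sets. Of these, 38 genes had at least 1 probe set annotated to them alone, out of 18193 such genes on the array, and together they held 88 of the 45037 non-control probe sets. The study set KLS cells with conditional inactivation of TIF1γ (Trim33), a transcriptional regulator of the TIF1 family, labelled TIF1γ Δ/Δ, against KLS cells of wild type mice (TIF1γ wtwt), to learn what the gene's loss does to haematopoietic stem cells. Each genotype was measured on 1 Affymetrix array from 25 ng of total RNA, so no difference has a replicate check, and no p-value or SD between mice can be given. The labels name no Cre driver, no age and no number of mice behind each RNA.

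Glycolysis splits glucose into pyruvate, and hexokinase and phosphofructokinase catalyse its regulated, practically irreversible early steps. The pentose phosphate pathway branches off at glucose 6-phosphate and yields NADPH and ribose, and the citrate cycle oxidises acetyl-CoA in mitochondria. Quiescent haematopoietic stem cells are known for a reliance on glycolysis, with pyruvate dehydrogenase kinases holding pyruvate back from the citrate cycle.

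The targeted gene, Trim33, gave 379 in the wild type sample and 172 in the TIF1γ Δ/Δ sample (log2 -1.12, 2 of 2 measured probe sets lower), and whether either probe set lies in the deleted part is not known here. Kit, one of the sorting markers, gave 384 and 495 (log2 0.39, and 1.14 at its other probe set). No probe set was annotated to Ly6a alone. Of 6 lineage genes, 4 had a probe set, and Cd8a alone reached the detection floor, at 18.8 on the wild type array. Most markers of mature myeloid cells differed far more than any member, with 19 of 20 measured ones at least 3-fold lower in TIF1γ Δ/Δ cells. The 21 neutrophil and macrophage markers summed to 40130 in wild type and 835 in TIF1γ Δ/Δ cells, with 20 and 8 measured, and the brightest by the mean of both signals were S100a8 (log2 -7.46), S100a9 (8147 and 9.92), Ngp (-7.55) and Camp (-8.26). Lyz2, the brightest of them on the TIF1γ Δ/Δ array, gave 2201 and 489 (-2.15). The 13 erythroid markers with a probe set summed to 6834 and 3110, with Car2 (log2 -0.49), Car1 (-1.65), Klf1 (-1.71) and Ermap (-1.77) the brightest. The 5 B cell markers summed to 602 and 191 (Cd79b at log2 -0.48, Vpreb1 at -2.62, Ms4a1 at 127 and 9.02, Cd79a under the floor), and the 8 T and NK cell markers to 1508 and 1160 (Nkg7 at -0.17, Klrd1 at -1.93, Gzma at 50.5 and 11.0, Cd3d at 28.2 and 1.79). Fewer cells of a type and less RNA per cell cannot be told apart in such bulk samples, and the part of these cells in the member differences was not tested.

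A signal counted as measured at or above the array's median, 14.4 for wild type and 11.7 for TIF1γ Δ/Δ. All differences are log2 of the TIF1γ Δ/Δ signal minus log2 of the wild type signal, less the median difference of all probe sets measured on both arrays, and each gene is represented by its brightest probe set. Of the 38 genes, 36 were measured on both arrays. Eno2, the neuronal enolase, lay under the floor on both, at 1.46 and 5.46. The lactate exporter Slc16a3 gave 10.7 and 11.9, measured on the TIF1γ Δ/Δ array only, so it has no fold. Gpi1, Eno1 and G6pdx were named by no probe set used here.

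**Figure D1:**
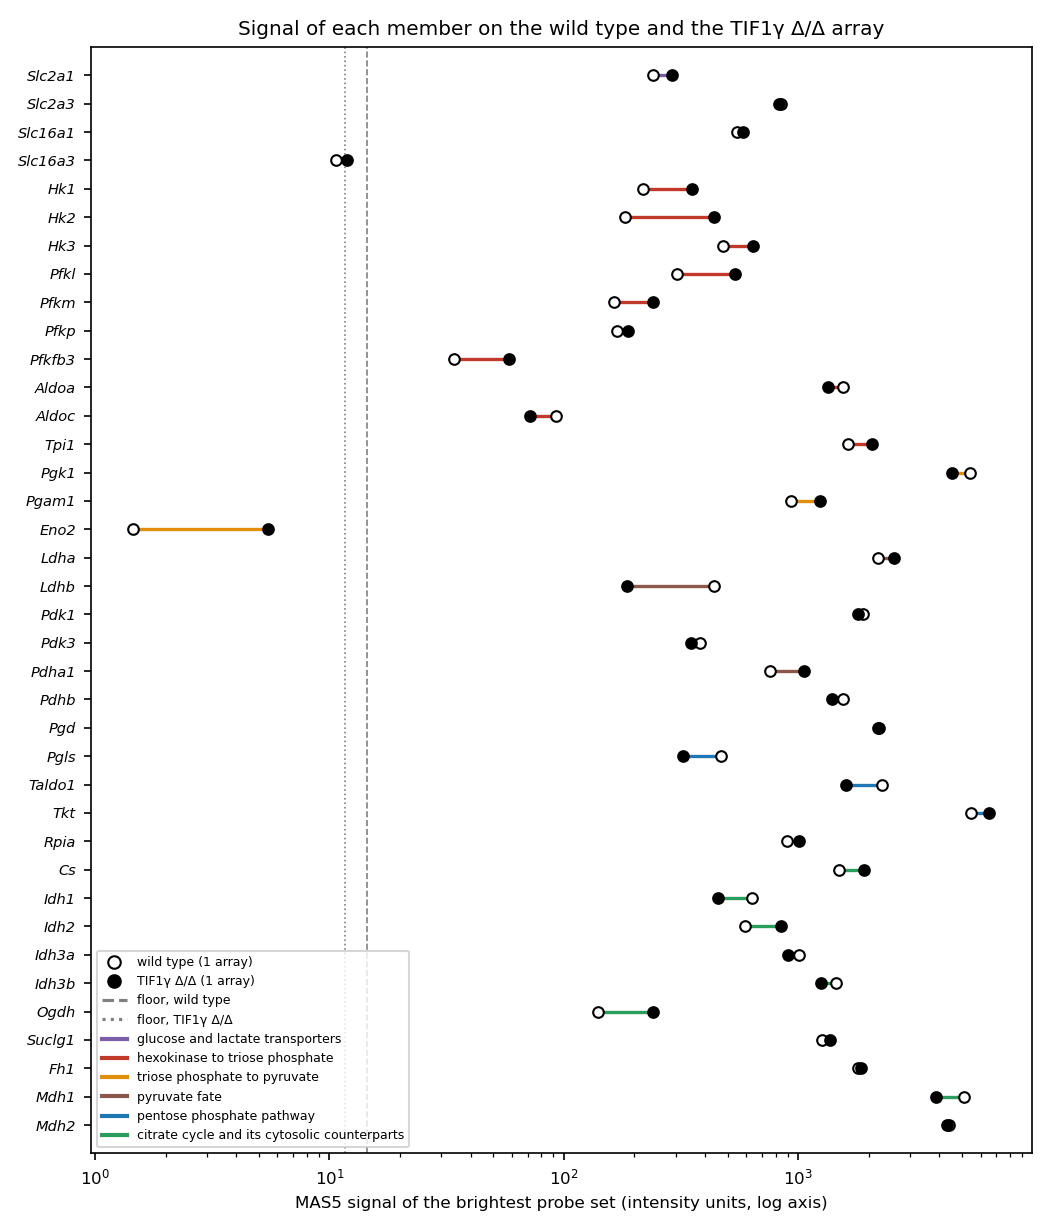
Signal of the brightest probe set of each of the 38 members with a probe set of their own, on a log axis in MAS5 intensity units; open circles are the wild type array, filled circles the TIF1γ Δ/Δ array, and the line joining them is coloured by pathway step. Hk2 (183 to 437) and Ldhb (436 to 186) are furthest apart among the members measured on both arrays, and only Eno2 (on both arrays) and Slc16a3 (on the wild type array) lie under the floor.

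Central carbon genes as a set did not differ more than the rest of the array. On the TIF1γ Δ/Δ array 1 member, Hk2, was at least 2-fold higher and 1, Ldhb, at least 2-fold lower, which is 2.70% of the 37 measured members each way. Over all 11724 measured genes, 2.53% were that much higher and 6.01% that much lower. At 1.5-fold, 5 members were higher (Hk2, Pfkl, Ogdh, Pfkfb3 and Hk1), or 13.5%, beside 13.5% of all genes, and 1 was lower (Ldhb) beside 15.3% of all genes. The median over the 37 members was 0.12, against 0.00023 for all measured genes, both with genes measured on 1 array counted at the floor. Over genes measured on both arrays it was 0.13 for members and 0.044 for all genes. The median was 0.11 for the 6140 genes with a geometric mean signal of at least 100, a range that holds 34 of the members. In that range, set after the data were seen, 4 members were at least 1.5-fold higher (11.8%, against 16.1% of such genes) and 1 lower (2.94%, against 8.45%). At 2-fold the range held 2.61% of its genes above and 2.67% below, with 1 member each way. Among members measured on both arrays, 22 of 36 lay above 0 (61.1%), beside 53.1% of all genes and 58.3% of the bright ones. Of the 34 bright members, 20 lay between the 25th and 75th percentile of the bright genes, -0.22 and 0.44, while 8 lay above and 6 below.

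**Figure D2:**
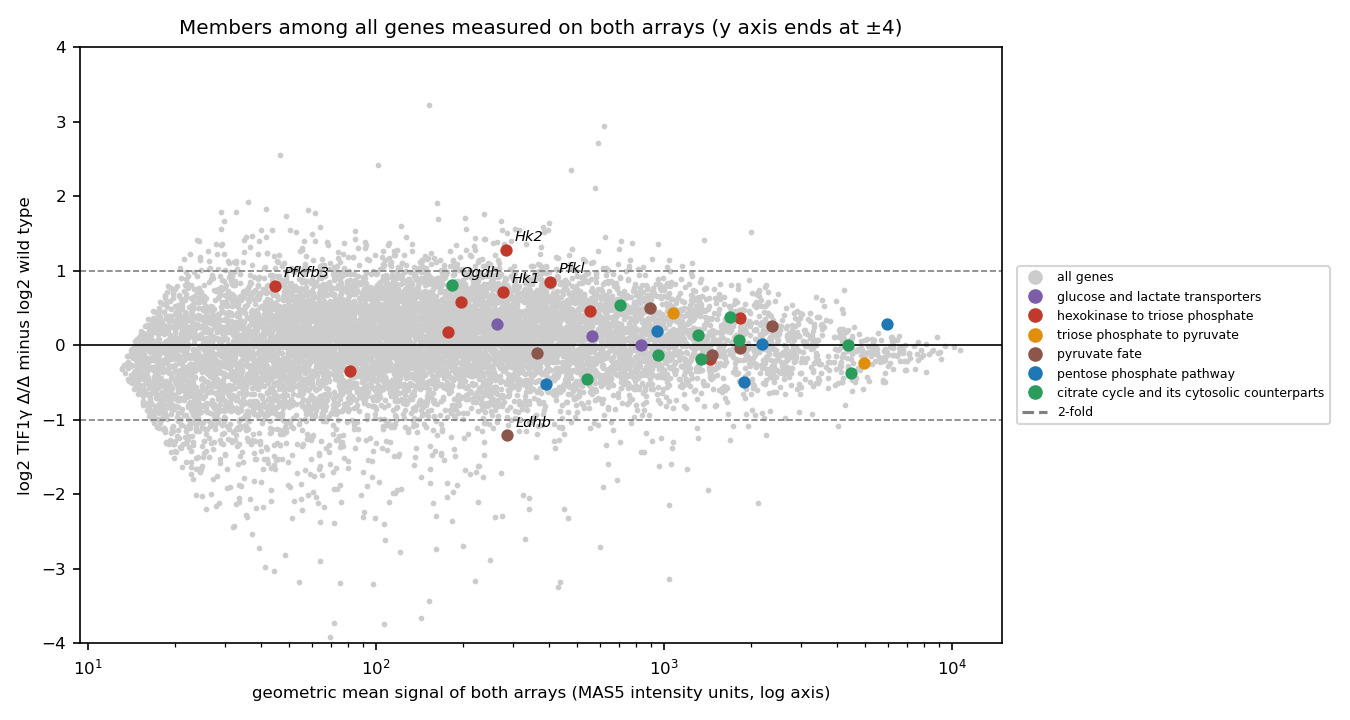
Difference between the arrays (vertical axis, log2) against the geometric mean signal (horizontal axis, log scale, MAS5 intensity units) for the 10365 genes measured on both arrays in grey, with the 36 members coloured by pathway step; 10 genes lie beyond the plotted range of 4. Hk2 lies above and Ldhb below the dashed 2-fold lines, and the other members lie between those lines.

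The only available error on a member's value is the disagreement of its probe sets, which share the same 2 RNA samples. Over the 21 members with several measured probe sets, the SD within a gene was 0.33 on the log2 scale, against 0.45 over 4534 genes of the whole array. All measured probe sets differed in 1 direction for 14 of these 21 members and in mixed directions for 7. The same split was not counted over all genes, so it shows no agreement particular to the members. Among 75 member probe sets above both floors, 42 had the higher signal in TIF1γ Δ/Δ cells and 33 the lower one. That is 56.0% higher, beside 52.3% of the 17738 single-gene probe sets.

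**Figure D3:**
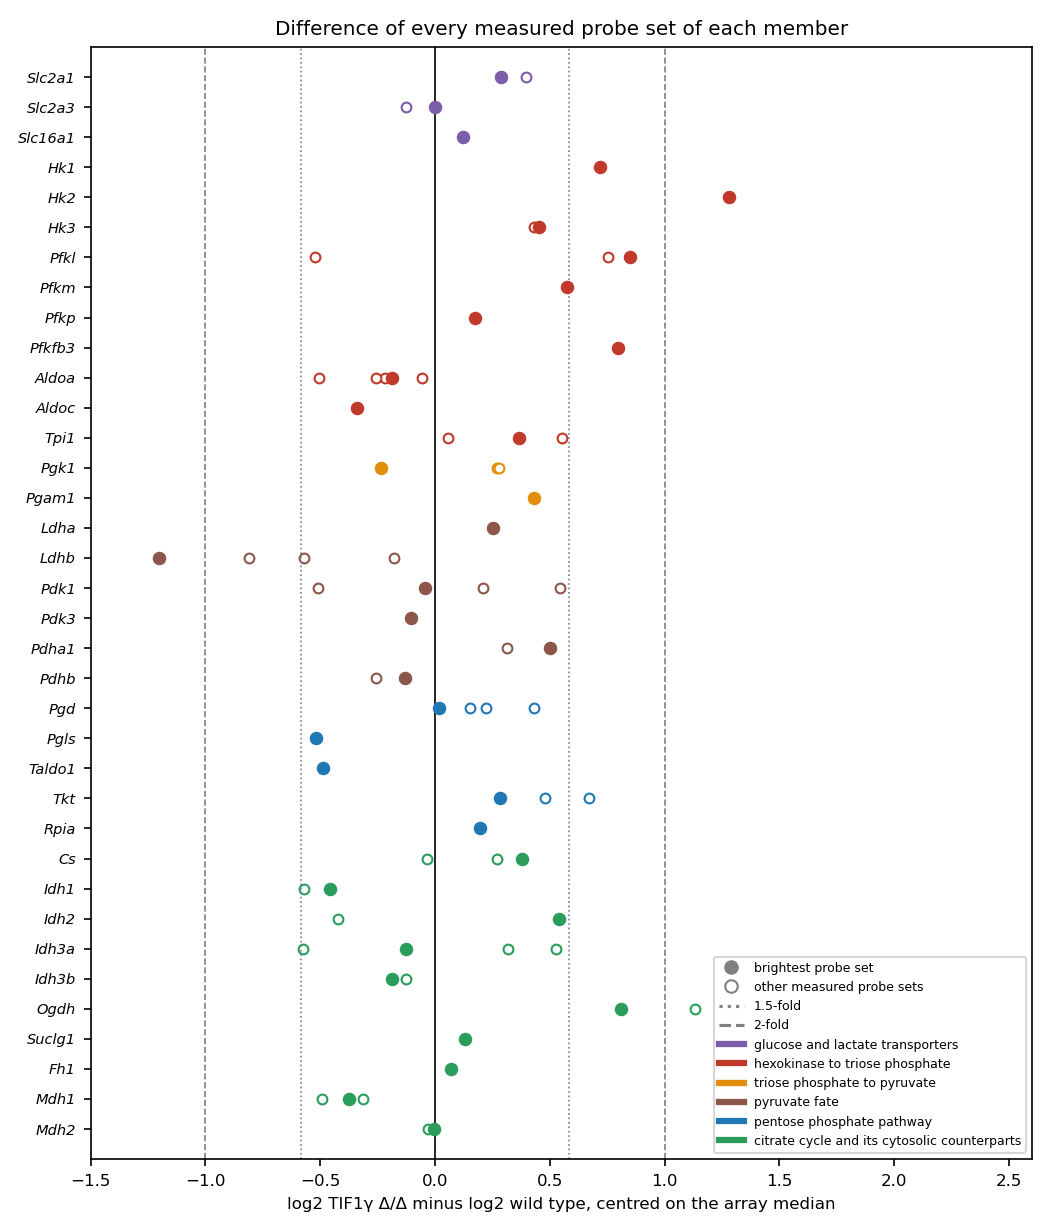
Difference of every probe set measured on both arrays (horizontal axis, log2 TIF1γ Δ/Δ minus wild type) for the 36 members, with the brightest probe set filled and the others open, and dotted and dashed lines at 1.5-fold and 2-fold. The 4 Ldhb probe sets all lie left of 0, the hexokinases lie right of it, and Slc2a3, Pfkl, Pgk1, Pdk1, Cs, Idh2 and Idh3a have probe sets on both sides.

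Glucose and lactate transporters differed little. Slc2a1, the widespread glucose transporter GLUT1, gave 240 in wild type and 288 in TIF1γ Δ/Δ cells (log2 0.29), and its 3 probe sets lay close together (mean 0.32, SD 0.062). Slc2a3, the high-affinity glucose transporter GLUT3, gave 840 and 827, a log2 difference of 0.0012 that changed sign with the scaling. Slc16a1, the monocarboxylate transporter MCT1, gave 545 and 583 (log2 0.12). None of the 3 transporters measured on both arrays reached 1.5-fold.

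The steps from hexokinase to triose phosphate held most of the larger positive differences. Of 10 measured members, 8 were above 0 (beside 53.1% of all genes and 58.3% of the bright ones) and 4 at least 1.5-fold higher (beside 13.5% and 16.1%), with a median of 0.52. All 3 hexokinases, which trap glucose in the cell as glucose 6-phosphate, had positive differences. Hk2, the inducible isoenzyme, gave 183 and 437 from its single probe set, a log2 difference of 1.28 or 2.43-fold. That placed it 85th from the top among the 10365 genes measured on both arrays, and it kept between 1.15 and 1.38 under the alternative settings. Hk1, the widely expressed isoenzyme, gave 218 and 352 (log2 0.72). A second Hk1 probe set lay under the floor at 4.43 and 8.37, and a further one, annotated to Hk1 together with Rpl17 and its copies, was not used for the gene. Hk3, the isoenzyme found mainly in leukocytes, gave 477 and 643 (log2 0.45) and 233 and 309 (0.43). Hk2 thus stood 0.57 above Hk1 and 0.83 above Hk3 in its difference, while Hk1 stood 0.26 above Hk3. Single probe sets of 1 member scattered by 0.33, and a gap between 2 such values scatters more. With 1 measured probe set each for Hk2 and Hk1, no error can be given for these gaps.

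The phosphofructokinase subunits, which commit the sugar to glycolysis, were also above 0 at their brightest probe sets, by unequal amounts. Pfkl, the liver-type subunit, gave 303 and 537 (log2 0.85). A second probe set gave 142 and 235 (0.75), but the remaining, dim one gave 36.8 and 25.2 (-0.52), the only Pfkl probe set left when those shared between transcripts are set aside. Pfkm, the muscle-type subunit, gave 164 and 240, and its 0.58 lay just under the 1.5-fold limit. Pfkp, the platelet-type subunit, gave 169 and 188 (0.17), whereas a dim second probe set, at 21.8 and 10.4, was measured on the wild type array only and lay at -0.88 or lower once the floor was put in for the lower signal. Pfkl and Pfkp differed by 0.68 at their brightest probe sets, but with the dim Pfkl probe set the order was the reverse (-0.70). Pfkfb3, which makes the phosphofructokinase activator fructose 2,6-bisphosphate, gave 34.1 and 58.4 (log2 0.80) from a probe set near the lower end of the measured range. Its other probe set lay at 16.2 and 9.02, above the floor on the wild type array only.

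The aldolases and triose phosphate isomerase differed in mixed directions, and none of them reached 1.5-fold. Aldoa, the main aldolase of most tissues, gave 1548 and 1340 (log2 -0.19), and all 5 of its probe sets were lower, from -0.51 to -0.058. The brain-type aldolase Aldoc gave 92.3 and 71.7 (-0.34). Triose phosphate isomerase, Tpi1, gave 1628 and 2062 (0.36, 3 of 3 probe sets higher, mean 0.33, SD 0.25). Both aldolases thus lay below 0 and the enzyme after them above it.

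Between triose phosphate and pyruvate, only Pgk1 and Pgam1 could be followed on probe sets of their own. The phosphoglycerate kinase Pgk1 gave 5409 and 4527 (log2 -0.23) at its brightest probe set, whereas the others gave 3404 and 4043 (0.27) and 2243 and 2675 (0.28), so it has no settled direction. Pgam1, a phosphoglycerate mutase, gave 931 and 1233 (0.43). Gapdh, which makes the first NADH of glycolysis, had no non-control probe set to itself. Its control probe sets, designed along the transcript to gauge RNA integrity, gave 3676 and 4314 at the 3' end (log2 0.25), 1689 and 2276 in the middle (0.45) and 468 and 584 at the 5' end (0.34). A bright probe set shared by Gapdh and its pseudogene copies gave 3897 and 4470 (0.22), and the other shared ones gave 0.028 and 0.26. The ratio of 3' to 5' signal was 7.86 for wild type and 7.38 for TIF1γ Δ/Δ with Gapdh, and 5.14 and 5.54 with the beta-actin gene Actb, so the 2 controls ordered the arrays oppositely. Members such as Gapdh, Aldoa, Pgk1, Tpi1 and Ldha are known for many processed pseudogenes, and the part of such copies in their signal was not tested.

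The lactate dehydrogenase subunits differed in opposite directions. Ldhb, the heart-type subunit, gave 436 and 186 at its brightest probe set (log2 -1.20, 2.30-fold), and 339 and 224 (-0.57), 337 and 189 (-0.81) and 256 and 223 (-0.18) at the others. All 4 lay below 0, with a mean of -0.69 and an SD of 0.43 over probe sets, so the probe sets shared its direction and spread in its size. With the mean of its probe sets Ldhb was under 2-fold. All 4 were of the kind shared between transcripts, so Ldhb had no value when such probe sets were set aside. Ldha, the muscle-type subunit, gave 2184 and 2562 (0.25) from 1 probe set. The Ldha difference exceeded that of Ldhb by 1.46 at the brightest probe sets, and by 0.43 to 1.46 over the 4 possible pairs.

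Genes of pyruvate dehydrogenase and its kinases showed no common shift. Pdk1, a kinase that inactivates pyruvate dehydrogenase, gave 1882 and 1797 (log2 -0.042), and its 4 probe sets ran from -0.51 to 0.54. Pdk3, another such kinase, gave 380 and 348 (-0.10). Of the first enzyme of the complex itself, the alpha subunit Pdha1 gave 758 and 1054 (0.50, 2 of 2 higher) and the beta subunit Pdhb gave 1546 and 1390 (-0.13, 2 of 2 lower). The subunits differed by 0.63 at the brightest probe sets, and Pdha1 was above Pdhb in 4 of 4 pairs.

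The pentose phosphate members split, with a median of 0.019 over 5 genes and none at 1.5-fold. Pgls, the lactonase of the oxidative branch, gave 470 and 323 (log2 -0.52). Taldo1, the transaldolase of the non-oxidative branch, gave 2269 and 1591 (-0.49). Tkt, the transketolase of the same branch, gave 5442 and 6519 (0.28), with 3 of 3 probe sets higher (mean 0.48, SD 0.19). Transaldolase and transketolase, which act in turn on the same sugar phosphates, therefore lay on opposite sides of 0. Pgd, the second NADPH-producing enzyme, gave 2201 and 2194 (0.019) at its brightest probe set and 0.15 to 0.43 at the other 3. Rpia, the ribose 5-phosphate isomerase, gave 895 and 1007 (0.20).

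Citrate cycle members had a median of 0.034, with 5 of 10 above 0 and 5 below. Ogdh, a subunit of the oxoglutarate dehydrogenase complex, was the only one past 1.5-fold, at 140 and 241 (log2 0.81), and its second, dim probe set gave 16.4 and 35.4 (1.13). Citrate synthase, Cs, which opens the cycle, gave 1493 and 1911 (0.38), with its other probe sets at 0.27 and -0.034. Suclg1, a succinyl-CoA ligase subunit, gave 1268 and 1365 (0.13), and fumarase, Fh1, gave 1799 and 1859 (0.071).

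For both dehydrogenases listed with a mitochondrial and a cytosolic form, the cytosolic form had the lower difference. Idh1, the cytosolic isocitrate dehydrogenase that makes NADPH, gave 636 and 456 (log2 -0.46) and 153 and 101 (-0.57). Idh2, its mitochondrial counterpart, gave 590 and 843 (0.54), but its dim second probe set gave 23.0 and 16.9 (-0.42), so its direction rests on the brighter one. Idh2 minus Idh1 was 0.99 at the brightest probe sets and above 0 in all 4 pairs, down to 0.033. Mdh1, the cytosolic malate dehydrogenase, gave 5099 and 3873 (-0.37, 3 of 3 measured probe sets lower, SD 0.089), while mitochondrial Mdh2 gave 4381 and 4299 (-0.0034). Mdh2 lay above Mdh1 by 0.28 to 0.49 over 6 pairs. The subunits of the NAD-dependent isocitrate dehydrogenase did not separate: Idh3a gave 1003 and 903 (-0.13, probe sets from -0.57 to 0.53) and Idh3b 1444 and 1247 (-0.19, 2 of 2 lower).

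Other genes of the same pathways were taken from fixed lists, in which 0 of 19 measured glycolysis genes and 1 of 8 pentose phosphate genes were at least 2-fold higher (2.53% of all genes), and 2 of 19 and 0 of 8 at least 2-fold lower (6.01%). Among 18 further glycolysis genes measured on both arrays, 10 were above 0 (55.6%) and 8 below. Of all genes measured on both arrays 53.1% were above 0, and of the bright ones 58.3%. Pklr, the pyruvate kinase of liver and red cells, gave 49.1 and 22.6 (log2 -1.10, 2 of 2 lower), and the glycerol phosphate dehydrogenase Gpd1 (35.8 and 8.43) was at least 3.02-fold lower. Pkm, the pyruvate kinase of most other cells, gave 525 and 804 (0.64). The gluconeogenic bisphosphatase Fbp1, picked for naming once its value was known, gave 732 and 1344 (0.90), in the same direction as the phosphofructokinases it opposes. Of 15 further genes around pyruvate, 10 were above 0 (66.7%) and none reached 2-fold. The mitochondrial pyruvate carrier subunit Mpc1, also picked afterwards, gave 596 and 319 (-0.88). H6pd, the glucose 6-phosphate dehydrogenase of the endoplasmic reticulum, gave 98.0 and 213 (1.15) and was the only 2-fold gene among 6 further pentose phosphate genes. Among 13 further citrate cycle genes 9 were above 0 (69.2%) and none was 2-fold apart.

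Of 19 regulators of glycolytic genes measured on both arrays, 9 were above 0 (47.4%, beside 53.1% of all genes) and 10 below. Hif1a, the oxygen-regulated activator of glycolytic genes, gave 533 and 512 (log2 -0.035), and its other probe sets gave -0.41 and -0.76. Its partner Arnt gave 159 and 62.8 (-1.32), although a dim second probe set gave 24.4 and 22.4 (-0.10). Another Arnt probe set, at 18.9 and 9.77, was measured on the wild type array only. A further one, at 2.11 and 14.4, was measured on the TIF1γ Δ/Δ array only. Egln1, a prolyl hydroxylase that marks HIF for degradation, gave 189 and 381 (1.04, and 0.36 at its other probe set). Max, the partner of Myc, gave 32.9 and 69.5 (1.10) from a single probe set near the lower end of the measured range. Myc itself gave 448 and 505 (0.20). Txnip, an inhibitor of glucose uptake, gave 872 and 552 (-0.64). Egln1 and Max were thus the 2 of 20 measured regulators at least 2-fold higher, beside 2.53% of all genes, and Arnt the 1 at least 2-fold lower, beside 6.01%.

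**Figure D4:**
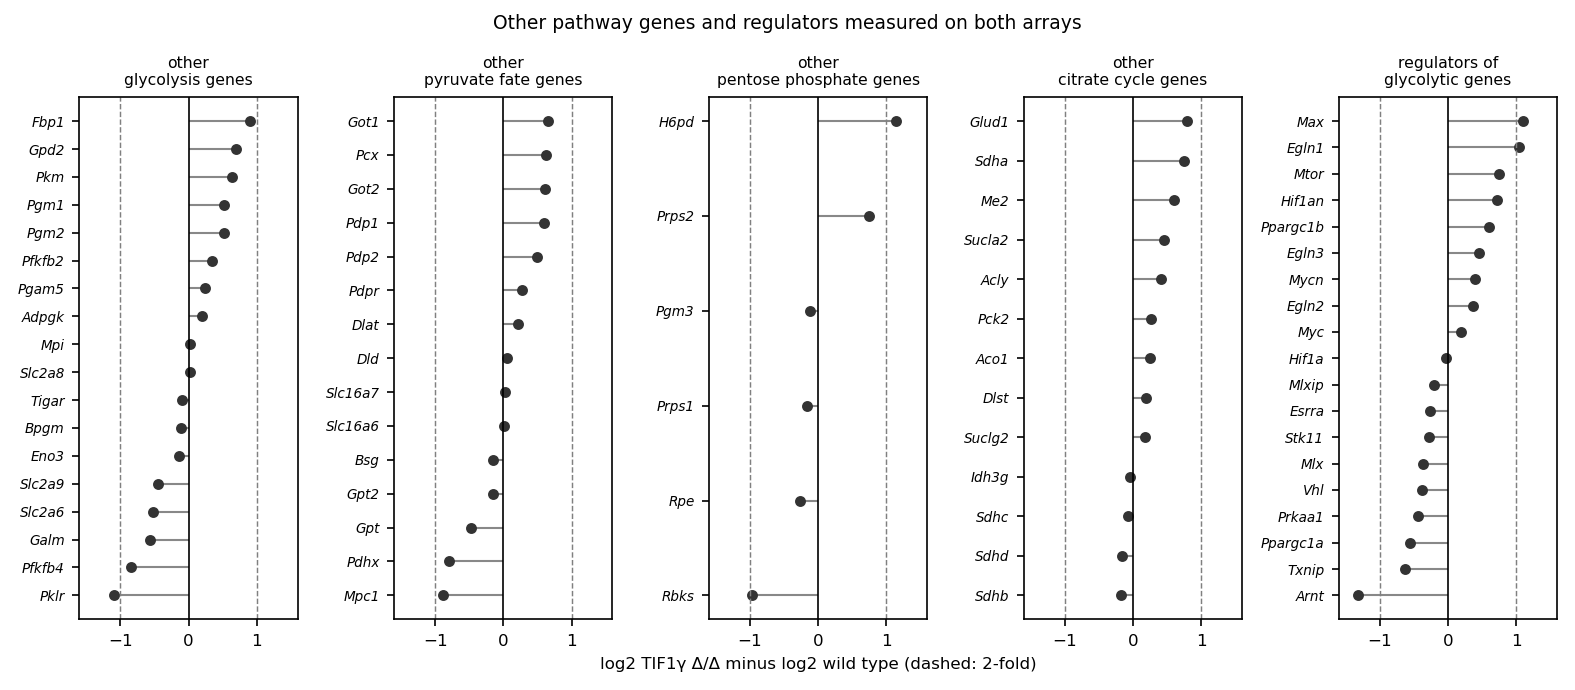
Difference between the arrays (horizontal axis, log2 TIF1γ Δ/Δ minus wild type) of the other pathway genes and regulators measured on both arrays, 1 panel per list, sorted by value, with dashed lines at 2-fold. H6pd, Max and Egln1 lie beyond the upper line and Pklr and Arnt beyond the lower one.

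Promoter windows are shown for Hk2 and Ldhb, the members past 2-fold, and for Ldha, the oppositely placed partner of Ldhb. The sequences are RefSeq windows of build GRCm38.p6, from 250 bases before to 50 after a gene's start, 5′ to 3′ on the gene's strand. Capitals mark ACGTG or GCGTG, core letters of the hypoxia response element, on either strand (CACGT or CACGC when read from the other strand). The window of Hk2 is chr6:82774405-82774704 (minus strand), that of Ldha, the more upstream of 2, is chr7:46845554-46845853 (plus strand), and that of Ldhb is chr6:142507908-142508207 (minus strand).
Hk2: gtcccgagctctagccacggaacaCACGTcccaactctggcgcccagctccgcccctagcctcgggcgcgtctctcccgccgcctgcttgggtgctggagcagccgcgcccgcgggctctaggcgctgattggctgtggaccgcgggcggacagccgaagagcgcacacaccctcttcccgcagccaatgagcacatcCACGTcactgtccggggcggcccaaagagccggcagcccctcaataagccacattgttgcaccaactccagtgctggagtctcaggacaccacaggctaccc
Ldha: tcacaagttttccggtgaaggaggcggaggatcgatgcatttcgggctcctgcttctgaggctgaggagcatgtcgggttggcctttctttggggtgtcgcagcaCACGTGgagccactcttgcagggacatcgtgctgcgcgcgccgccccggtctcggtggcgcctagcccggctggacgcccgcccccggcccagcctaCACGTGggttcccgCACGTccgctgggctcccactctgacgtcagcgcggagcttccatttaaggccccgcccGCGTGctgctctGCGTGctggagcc
Ldhb: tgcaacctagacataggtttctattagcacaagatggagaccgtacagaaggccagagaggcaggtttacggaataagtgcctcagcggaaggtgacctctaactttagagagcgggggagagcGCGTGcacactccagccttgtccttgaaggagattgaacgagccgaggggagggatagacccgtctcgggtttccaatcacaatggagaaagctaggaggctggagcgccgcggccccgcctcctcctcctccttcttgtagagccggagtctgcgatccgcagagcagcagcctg
The Hk2 window held 2 matches to ACGTG and none to GCGTG. The Ldha window held 5 to ACGTG, 4 of them within 2 copies of CACGTG, and 2 to GCGTG, whereas the other Ldha window (chr7:46846832-46847131, not printed) held none to ACGTG or CACGTG and 2 to GCGTG. The Ldhb window held none to ACGTG and 1 to GCGTG.

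Windows were found for 40 of the 42 genes, 59 windows in all, some of which overlap. ACGTG occurred in 45.8% of them, beside 19.6% of all 32851 windows, and GCGTG in 64.4% beside 32.4%. The member windows were richer in G and C (median 60.7% against 52.7%), and among the 9141 windows at or above that member median the shares were 26.5% for ACGTG and 60.0% for GCGTG. By direction, ACGTG occurred in a window of 10 of the 21 members above 0 (47.6%) and of 6 of the 13 below 0 (46.2%). Counted the same way, it occurred in 21.8% of all 27025 genes. GCGTG occurred in 17 of the 21 (81.0%) and 9 of the 13 (69.2%), beside 35.2% of all genes. CACGTG, the E-box bound by Myc with Max, which contains ACGTG on both strands, occurred in 5 of the 21 and 0 of the 13, beside 8.09% of all 27025 genes. Counted by window, it was in 11.9% of the member windows and in 11.0% of the windows at or above the members' median G and C. The 5 genes with a match were Ldha, Ogdh, Pfkfb3, Pfkm and Slc16a1. A match is only a run of letters in these windows, and genes with several windows have more chances to hold one.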

How the data were processed

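Total RNA of sorted KLS cells was labelled with a two-cycle Affymetrix assay, per the labels' protocols, and measured on 2 arrays, grouped by the genotype label. The deposited values are linear intensities from the MAS5 program, per the submitters' processing notes; its version is not stated. Without the lowest and highest 2% of probe sets the mean was 100.0 on both arrays, so the deposited intensities had been scaled.

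The 64 control probe sets, 932 annotated to several genes and 9160 to none were left out. Symbols came from the platform annotation, updated by Entrez identifier to RefSeq (GRCm38.p6; 34741 of 34945 single-gene probe sets). The brightest probe set stood for a gene. Signals under the array median (floor) on 1 array were set to it, giving bounds. The median difference removed was -0.024 (log2).

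Members and lists were chosen with earlier results of these data known. Every member is given, with other pathway genes at least 2-fold apart, Hif1a, Myc, Pkm and Txnip, and the 4 brightest of each marker list. Alternatives changed scaling, floor, probe set rule, pseudocount (16) and fold. The procedure was run on simulated data without noise, which checks its arithmetic and not the error of these arrays. Python 3.11.15, numpy 2.4.6, pandas 2.3.3, statsmodels 0.14.6 and matplotlib 3.10.9 were used. With 1 array per group the number of arrays limits every value.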

Additional observations from a re-analysis of the deposited data

How the results depend on the processing

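Of 309 member values recomputed under alternative settings, 303 moved by less than the probe set scatter of 0.45. In every setting that gave them a value, 28 of 36 members kept their sign. Members with only probe sets shared between transcripts, such as Hk1, Ldhb, Ldha, Aldoa, Idh1 and Taldo1, had no value once those were set aside. Pfkl turned from 0.85 to -0.52 without probe sets shared between transcripts. The count of members at least 2-fold higher was 2 with no floor and 0 at 3-fold. The count at least 2-fold lower was 0 with the mean of measured probe sets and at 3-fold. It was also 0 without shared probe sets, where Ldhb dropped out because all 4 of its probe sets are of that kind. Members at least 1.5-fold higher numbered 9 with no floor and 3 without shared probe sets, which left 24 genes. Those 1.5-fold lower numbered 2 with quantile or loess scaling (beside 5 and 4 higher) and 0 without shared probe sets, again without Ldhb. The glycolysis, transport and pyruvate median of 0.21 (0.25 over members measured on both arrays) was 0.098 with loess scaling and 0.35 with no floor. Pentose phosphate and citrate cycle medians stayed within -0.040 to 0.20. The causes were not tested. Among single-gene probe sets under a mean signal of 50, 41.4% had the higher signal in TIF1γ Δ/Δ cells, and of those at 100 or more, 58.1%, so dim values differ from bright ones across the array. No paired analysis was possible because each group has 1 array, and no replicate could be left out.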
